A study of Mus musculus with 13 samples.

Results

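The ADAMTS proteases described here are 10 genes, Adamts1, Adamts2, Adamts4, Adamts5, Adamts8, Adamts9, Adamts10, Adamts12, Adamts14 and Adamts15, taken by symbol from the 54513 gene symbols of the deposited count table. All 10 passed the filter on low counts, as did 20468 genes in all. The study sequenced total RNA from lung of C57Bl/6 males given bleomycin, a DNA-damaging drug used to model lung fibrosis, or saline. The mice were aged 7 to 8 weeks, and lungs were taken on day 21. A coronal section, 10 µm thick, was cut from each formalin-fixed, paraffin-embedded lung, and 8 ng of its RNA went into a library. There were 8 bleomycin libraries (batch 1: replicates 5 to 8; batch 2: replicates 1 to 4) and 5 saline libraries, which were all in batch 1. The labels do not tie libraries to separate animals, so the p-values cover the spread among these libraries only, and that spread may be technical.

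ADAMTS proteins are secreted zinc proteases that carry thrombospondin repeats and act in the extracellular matrix. The family is usually grouped by substrate: proteases of aggrecan, versican and related proteoglycans (Adamts1, Adamts4, Adamts5, Adamts8, Adamts9, Adamts15), procollagen N-propeptidases that trim the amino end of fibrillar collagens (Adamts2, Adamts14), a protease of cartilage oligomeric matrix protein (Adamts12) and a fibrillin-binding member (Adamts10). In lung, versican, fibrillar collagen and fibrillin are all part of the matrix that is laid down during scarring. Everything measured below is messenger RNA, and in a bulk section fewer cells of a type and less RNA per cell cannot be told apart.

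Total counts per library ran from 6337147 to 28885129, with 9527580 to 26043735 in saline, 21727502 to 28885129 in batch 1 bleomycin and 6337147 to 12982422 in batch 2 bleomycin. The title of bleomycin replicate 8 says control, whereas its treatment label and library name say bleomycin, and it was kept as bleomycin. Its levels of the matrix genes Fn1 and Col1a1 were 8202 and 3982 CPM (counts scaled to a common library total). Saline libraries had 368.8 to 450.1 and 214.7 to 324.0 CPM. Changes of the members without replicate 8 are given beside those that use it, and those of related genes after the related lists. The library numbers form separate runs for batch 1 bleomycin, batch 2 bleomycin and saline. What the numbers stand for is not given, and an effect of such a run cannot be told apart from the effect of bleomycin. Over all tested genes, 3586 were higher and 2733 lower in batch 1 bleomycin than in saline at an adjusted p under 0.05. These p-values are from edgeR's quasi-likelihood test with Benjamini-Hochberg adjustment over all tested genes, as are all adjusted p-values for genes below. A log2 change is batch 1 bleomycin minus saline, with its standard error (SE).

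The RefSeq promoter table for build GRCm38.p6 held 5 of the 10 members, and the 250 bases before the start of transcription are shown for 4 of them. Adamts1, Adamts2 and Adamts12 are shown because they rose together without overlap with saline in either batch. Adamts14 is shown because it is the paralogue of Adamts2 and its change did not pass the test. Capitals mark matches on either strand to 4 motifs. The letters searched were TGANTCA for AP-1, TATAAA for the TATA box, GGGCGG for the GC box and GGAATG for TEAD, and matches of one motif may adjoin or overlap.
Adamts1, chr16:85803114-85803363, minus strand: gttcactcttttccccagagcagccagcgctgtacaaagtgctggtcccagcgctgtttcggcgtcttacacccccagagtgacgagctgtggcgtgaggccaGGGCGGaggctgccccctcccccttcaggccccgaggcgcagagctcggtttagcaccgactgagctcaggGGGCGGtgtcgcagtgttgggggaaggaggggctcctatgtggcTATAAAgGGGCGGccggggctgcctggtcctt
Adamts2, chr11:50601835-50602084, plus strand: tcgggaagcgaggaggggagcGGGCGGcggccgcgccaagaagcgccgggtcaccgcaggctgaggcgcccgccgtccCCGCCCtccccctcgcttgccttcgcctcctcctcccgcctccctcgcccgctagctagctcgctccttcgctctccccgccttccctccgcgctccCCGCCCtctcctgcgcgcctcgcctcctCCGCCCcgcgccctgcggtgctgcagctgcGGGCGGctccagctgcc
Adamts12, chr15:11064523-11064772, plus strand: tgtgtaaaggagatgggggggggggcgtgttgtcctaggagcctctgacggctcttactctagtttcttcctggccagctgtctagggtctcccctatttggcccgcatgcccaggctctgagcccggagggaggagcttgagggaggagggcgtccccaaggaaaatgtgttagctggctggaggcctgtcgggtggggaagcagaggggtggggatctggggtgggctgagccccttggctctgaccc
Adamts14, chr10:61273420-61273669, minus strand: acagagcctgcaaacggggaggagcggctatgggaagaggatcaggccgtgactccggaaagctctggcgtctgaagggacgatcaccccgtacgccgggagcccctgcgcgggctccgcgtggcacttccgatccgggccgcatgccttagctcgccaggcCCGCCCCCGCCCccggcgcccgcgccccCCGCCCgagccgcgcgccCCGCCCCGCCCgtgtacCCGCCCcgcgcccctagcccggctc

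Of these motifs, the Adamts1 window held 1 TATA box, 32 bases before the start, and 3 GC boxes. The Adamts2 window held 5 GC boxes and the Adamts14 window 6, with none of the other motifs in either. The Adamts12 window held no match to any of the 4 motifs. Among 32851 promoter windows of the same length, 12.4% held the TATA box letters, 32.7% the GC box, 6.75% the AP-1 site and 12.6% the TEAD site. The GC content was 65.6% for Adamts1, 78.0% for Adamts2, 63.2% for Adamts12 and 76.4% for Adamts14, against a median of 52.4% over all windows. The paralogues Adamts2 and Adamts14, which differed in response, both had GC-rich windows with several GC boxes. A match describes letters only and shows no binding.

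Expression of these proteases was first compared between bleomycin-injured and saline lung. Of the 10 members, 6 were higher in bleomycin at an adjusted p under 0.05 (Adamts1, Adamts2, Adamts4, Adamts9, Adamts12 and Adamts15), where 17.5% of all tested genes were higher and 30.9% were called in either direction. None was lower, where 13.4% of all genes were. Of the 6, 5 rose by at least 2-fold, a step that 7.83% of all genes made. In 5 members (Adamts1, Adamts2, Adamts4, Adamts12 and Adamts15) every batch 1 bleomycin library lay above every saline library, which held for 14.0% of tested genes. The same 5 members also lay wholly above saline in batch 2, where the share over all genes was 15.3%. Without bleomycin replicate 8 the 6 stayed called, and with it counted as saline none was. In the latter fit, the library moved to saline had Fn1 and Col1a1 levels far above those of every saline library. The median log2 change was 1.01 over the 10 members and 0.03 over all tested genes.

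Adamts4, an aggrecanase that also cleaves versican, had the lowest level in saline and the largest rise. In saline it stood at 0.682, 0.696, 0.766, 0 and 0.735 CPM (counts scaled to a common library total) in replicates 1 to 5, which rest on 16, 6, 21, 0 and 10 counts. For the library with no count, the limit that a count of 0 allows (3 counts) is 0.189 CPM, if each count is an independent molecule. Both mates of a pair appear to be counted, so the true limit is higher. Saline lung thus held only a trace of this transcript in all 5 libraries. In batch 1 bleomycin it reached 7.99, 42.4, 30.8 and 40.5 CPM in replicates 5 to 8, from 194, 1220, 782 and 997 counts. In batch 2 bleomycin it was 23.9, 8.06, 5.58 and 9.52 CPM in replicates 1 to 4. Replicate 1 was the high library of batch 2 and replicate 5 the low one of batch 1, yet the lowest of the 8 bleomycin libraries was still 7.28 times the highest saline library. It rose by 5.69 on the log2 scale (SE 0.71, adjusted p = 0.000155), a fitted 51.6-fold, and ranked 35 of 20468 tested genes. Without bleomycin replicate 8 it was 5.49.

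Adamts1, a protease of versican and aggrecan known as inflammation-induced, was the most abundant member per exon length in every group. Saline replicates 1 to 5 had 77.2, 111, 112, 99.0 and 106 CPM. Batch 1 bleomycin replicates 5 to 8 had 238, 238, 202 and 300 CPM, and batch 2 replicates 1 to 4 had 189, 128, 152 and 168 CPM. The 3 sets of libraries did not overlap: batch 1 bleomycin was highest, batch 2 bleomycin lay between, and saline was lowest. Its log2 change was 1.28 (SE 0.14, adjusted p = 7.29e-06), and 1.13 without bleomycin replicate 8.

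Adamts15, another proteoglycan protease, stood at 40.2, 45.5, 64.5, 50.1 and 53.1 CPM in saline. It was 66.2, 195, 107 and 131 CPM in batch 1 bleomycin replicates 5 to 8, and 137, 110, 89.3 and 99.9 CPM in batch 2 replicates 1 to 4. The groups separated narrowly, since bleomycin replicate 5 was only 1.03 times the highest saline library. Adamts15 rose by 1.30 (SE 0.26, adjusted p = 0.00246), and by 1.24 without bleomycin replicate 8.

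Adamts9, a widely expressed versican protease with a long carboxy-terminal tail, was the called member whose groups overlapped. Saline libraries had 69.8, 85.9, 128, 102 and 91.6 CPM, and batch 1 bleomycin replicates 5 to 8 had 172, 119, 225 and 127 CPM. The ranges overlapped, because saline replicate 3 exceeded bleomycin replicates 6 and 8. Batch 2 bleomycin libraries, at 124, 84.4, 79.9 and 76.4 CPM, all lay within the saline range. Adamts9 rose by 0.75 (SE 0.22, adjusted p = 0.0189), and by 0.81 without bleomycin replicate 8. The call was lost without bleomycin replicate 7 (0.55, adjusted p = 0.061), without saline replicate 2 (0.67, adjusted p = 0.0608), with no filter on low counts (0.78, adjusted p = 0.0503) and with no batch term (0.40, adjusted p = 0.269). In the GENCODE M21 annotation Adamts9 overlaps 3 genes on the opposite strand, of which 9530026P05Rik carried 3981 counts summed over the 13 libraries, and the strand setting of the counting is not given.

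The other 2 proteoglycan proteases did not pass the test. Adamts5, the main aggrecanase of mouse cartilage, stood at 36.4, 32.0, 24.8, 31.8 and 31.6 CPM in saline and at 40.0, 39.3, 26.4 and 41.5 CPM in batch 1 bleomycin. Batch 2 bleomycin libraries had 35.0, 28.1, 28.6 and 26.9 CPM, all within the saline range. Its log2 change was 0.23 (adjusted p = 0.235), with an interval of -0.05 to 0.52 at 2 SE, so a change as large as 2-fold lies outside it. It was 0.14 without bleomycin replicate 8. Adamts8, a lung-expressed member related to Adamts1, had 22.7, 13.9, 28.6, 18.6 and 21.8 CPM in saline and 19.8, 26.1, 20.4 and 26.6 CPM in batch 1 bleomycin. Its batch 2 values were 32.2, 23.9, 26.5 and 30.8 CPM, and the groups overlapped. For Adamts8 the log2 change was 0.13 (adjusted p = 0.613, interval -0.22 to 0.48), and 0.03 without bleomycin replicate 8.

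Adamts2, the procollagen N-propeptidase that acts on type I, II and III procollagens, had a tight saline range of 53.4, 53.1, 52.1, 59.7 and 47.5 CPM. Batch 1 bleomycin replicates 5 to 8 had 112, 185, 166 and 236 CPM, and batch 2 replicates 1 to 4 had 233, 145, 153 and 156 CPM. All 8 bleomycin libraries were above all saline libraries, and the lowest of them was 1.88 times the highest saline library. Adamts2 rose by 1.72 (SE 0.18, adjusted p = 1.77e-05), and by 1.5 without bleomycin replicate 8. Adamts14, a close paralogue with the same kind of activity, stayed low. It had 7.84, 6.96, 7.37, 7.86 and 10.8 CPM in saline, 3.05, 8.92, 8.34 and 15.3 CPM in batch 1 bleomycin and 12.6, 13.9, 6.34 and 4.98 CPM in batch 2. Bleomycin libraries lay on both sides of the saline range, with replicate 5 lowest and replicate 8 highest. For Adamts14 it was 0.12 (SE 0.38, adjusted p = 0.835, interval -0.63 to 0.88), and -0.30 without bleomycin replicate 8.

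Adamts12, which cleaves cartilage oligomeric matrix protein, had the second largest rise. It stood at 11.0, 10.7, 6.46, 14.5 and 10.3 CPM in saline, at 27.6, 74.4, 56.2 and 98.1 CPM in batch 1 bleomycin and at 103, 41.9, 30.4 and 43.1 CPM in batch 2. Bleomycin libraries varied by 3.55 times within batch 1 and by 3.40 times within batch 2, and none reached down to saline. Adamts12 rose by 2.6 (SE 0.43, adjusted p = 0.00111), a fitted 6.08-fold, and by 2.29 without bleomycin replicate 8. Adamts10, which binds fibrillin and is mutated in a short-stature and eye disorder, was abundant in all groups. It had 129, 137, 125.7, 136 and 116 CPM in saline, 148, 104, 111 and 147 CPM in batch 1 bleomycin and 141, 135, 160 and 180 CPM in batch 2. Batch 1 bleomycin lay on both sides of the saline values. The log2 change was -0.01 (SE 0.12, adjusted p = 0.949, interval -0.25 to 0.22), the narrowest interval of the 10 members. It was -0.12 without bleomycin replicate 8.

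**Figure D1:**
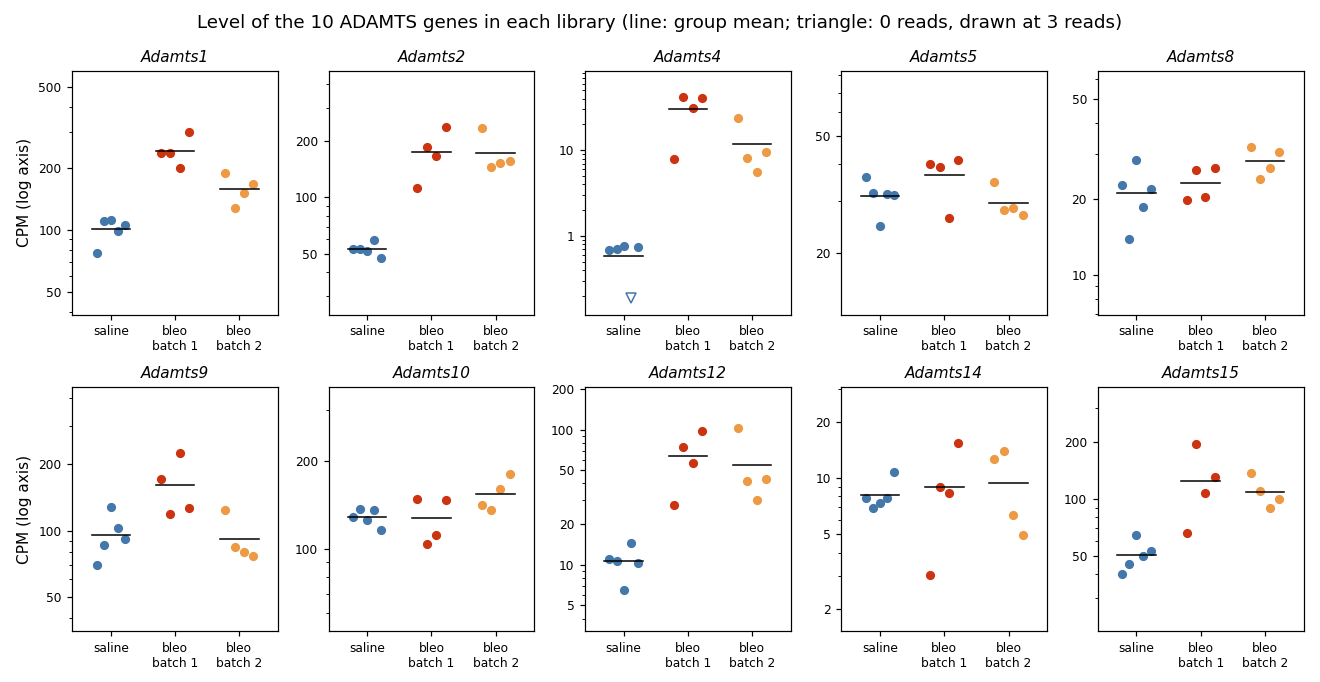
Level of each ADAMTS gene in CPM on a log axis, 1 point per library (blue saline, n = 5; red batch 1 bleomycin, n = 4; orange batch 2 bleomycin, n = 4), with a line at each group mean and an open triangle at 3 counts for the saline library with no Adamts4 count. Adamts1, Adamts2, Adamts4, Adamts12 and Adamts15 lie wholly above saline in both batches, whereas Adamts5, Adamts8, Adamts9, Adamts10 and Adamts14 overlap it in both.

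The order of the members changed with treatment when levels were set per kilobase of exon. In saline, Adamts1 (19.0 ± 2.68 CPM per kb, SD, n = 5) and Adamts10 (15.6 ± 1.04) led, with overlapping ranges. Adamts9 (6.34), Adamts2 (5.70), Adamts15 (4.89) and Adamts8 (4.58) followed, each overlapping its neighbour, and then Adamts5 (2.90). Adamts14 (1.57), Adamts12 (0.969) and Adamts4 (0.12) closed the order, each below its upper neighbour without overlap. In batch 1 bleomycin, Adamts1 stood alone at the top at 46.1 ± 7.64 CPM per kb (SD, n = 4). Adamts2 came second at 18.7 ± 5.48, Adamts10 was at 15.5 ± 2.80, and Adamts15 was at 12 ± 5.19, and each overlapped the next. Adamts4 moved from last place to the sixth, at 6.32 ± 3.28 CPM per kb, overlapping Adamts9 above it (10.7) and Adamts12 below it (5.87). Adamts14 was last at 1.71 ± 0.963. In batch 2 bleomycin Adamts1 (30.1 ± 4.88) again stood alone at the top, but Adamts10 (18.7 ± 2.45) and Adamts2 (18.4 ± 4.39) overlapped in the places after it. Adamts4 was ninth there at 2.45 ± 1.72, overlapping Adamts5 above it (2.75) and Adamts14 below it (1.82).

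Summed over the 10 members, the level was 61.7 ± 4.32 CPM per kb in saline (55.3 to 67.4), 125 ± 19.8 in batch 1 bleomycin (105.5 to 150.6) and 102 ± 17.1 in batch 2 bleomycin (88.3 to 126.3). Every bleomycin library was above every saline library in this sum. Adamts10 made up 25.4% ± 2.47 of the sum in saline (SD, n = 5) and 12.6% ± 3.12 in batch 1 bleomycin (n = 4), while its own level was nearly the same. Adamts2 went from 9.27% ± 0.973 to 14.7% ± 2.32, and Adamts4 from 0.195% ± 0.110 to 4.87% ± 2.26. Adamts1 held 30.8% ± 2.92 of the sum in saline and 36.9% ± 4.19 in batch 1 bleomycin, the largest share in both. In batch 2 bleomycin, Adamts10 was at 18.7% ± 3.68, Adamts2 at 17.9% ± 1.32 and Adamts4 at 2.26% ± 1.16. Adamts1 was at 29.6% ± 2.04 in batch 2, again the largest share but not above its mean share in saline. The batch 1 sum without bleomycin replicate 8 was 117 ± 12.8 CPM per kb, with Adamts1 at 36.7% and Adamts10 at 12.8% of it (n = 3). These shares describe the libraries and were not tested.

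**Figure D2:**
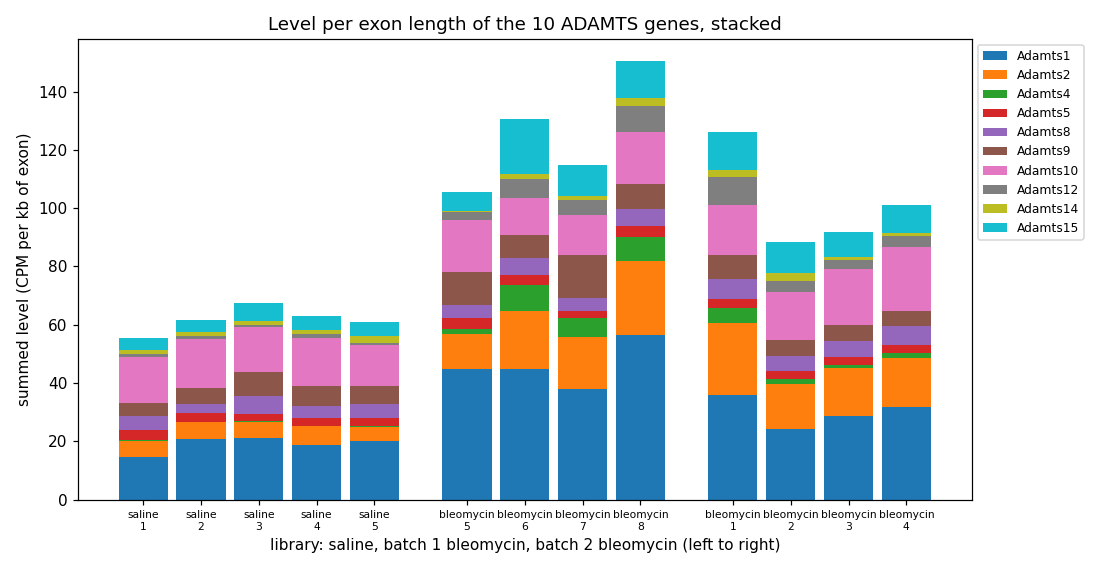
Summed level of the 10 ADAMTS genes in CPM per kb of exon for each library, stacked by gene, with saline on the left, batch 1 bleomycin in the middle and batch 2 bleomycin on the right. The sum is 55.3 to 67.4 in saline and 88.3 to 150.6 in the 8 bleomycin libraries, and the Adamts10 layer stays similar while those of Adamts1, Adamts2, Adamts4, Adamts12 and Adamts15 widen.

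Ratios between related members within a library do not depend on how libraries are scaled, apart from a prior count of 2 added to each count. The pairs were chosen with earlier results of these data known. Adamts4, Adamts2 and Adamts1, called higher above, were each set over a member that did not pass. Their ratios largely restate those rises in the same libraries and give no separate support. The 4 pairs were compared between 4 batch 1 bleomycin and 5 saline libraries by an exact two-sided permutation test over all splits. The smallest p this design allows is 0.00794, and adjusted values are over the 4 pairs. The log2 ratio of Adamts4 to Adamts5 counts (prior count 2) was -5.57, -5.12, -4.89, -7.99 and -5.17 in saline and -2.31, 0.11, 0.22 and -0.03 in batch 1 bleomycin replicates 5 to 8. The saline values rest on 0 to 21 Adamts4 counts and depend in part on the prior. This holds most for the lowest, from the library with no Adamts4 count. Adamts4 thus went from far below Adamts5 to about the same count in replicates 6 to 8, but not in replicate 5. The difference was 5.24 (exact permutation p = 0.00794, adjusted p = 0.0159), and batch 2 bleomycin values were -0.54, -1.77, -2.32 and -1.47.

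For Adamts2 to Adamts14, the log2 ratio was 2.12 to 2.91 in saline and 3.94 to 5.16 in batch 1 bleomycin. The groups did not overlap, and the difference was 1.75 (exact permutation p = 0.00794, adjusted p = 0.0159). Batch 2 bleomycin values were 3.37 to 4.89, also above saline. Without bleomycin replicate 8 the differences of these pairs were 5.09 and 1.91, and each kept its call. For Adamts1 to Adamts8 the ratio was 1.76 to 2.97 in saline and 3.19 to 3.59 in batch 1 bleomycin, a difference of 1.12 (exact permutation p = 0.0159, adjusted p = 0.0212). Its batch 2 values, 2.41 to 2.54, lay within the saline range. For Adamts12 to Adamts7, another protease of cartilage oligomeric matrix protein, the ratio was 0.91 to 2.69 in saline and 2.00 to 3.75 in batch 1 bleomycin. The difference of 1.04 did not pass (exact permutation p = 0.0635, adjusted p = 0.0635), although without saline replicate 4 it was 1.29 with an adjusted p of 0.0286 by the same exact test. The differences without bleomycin replicate 8 were 1.08 for Adamts1 to Adamts8 and 1.17 for Adamts12 to Adamts7, on the same side of the threshold.

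**Figure D3:**
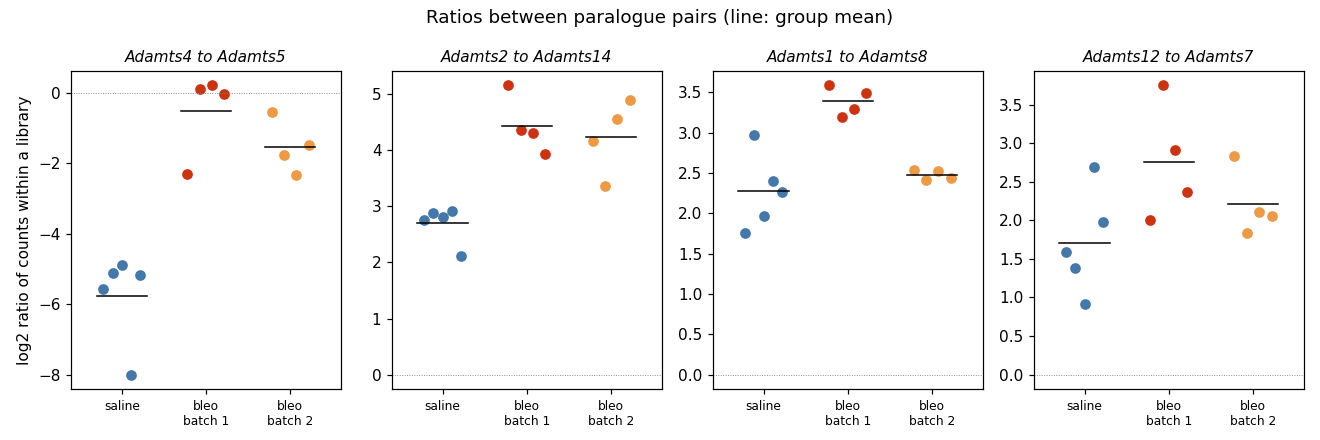
Log2 ratio of counts (prior count 2) between paralogue pairs within each library, by group, with a line at each group mean (blue saline, n = 5; red batch 1 bleomycin, n = 4; orange batch 2 bleomycin, n = 4). Batch 1 bleomycin lies wholly above saline for the first 3 pairs and overlaps it for Adamts12 to Adamts7, and Adamts1 to Adamts8 in batch 2 lies within the saline range.

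Levels of the members differed among the 8 bleomycin libraries. Replicate 8 was the highest batch 1 library for 6 of the 10 members and replicate 5 the lowest for 6, and replicate 1 was the highest batch 2 library for 8. Fn1, which encodes fibronectin, ran in the same direction in these libraries, with 8202 CPM in replicate 8, 1714 in replicate 5 and 8078 in replicate 1. Timp1, a metalloproteinase inhibitor, was at 54.0 CPM in replicate 8, 10.5 in replicate 5 and 55.3 in replicate 1. Replicate 6, also high in Fn1 (5978 CPM) and Timp1 (47.2 CPM), was the highest batch 1 library for 2 members and the lowest for 2. How often each library was highest or lowest over all tested genes was not counted, so these counts have no background. The TMM factor that scales a library's total was 0.853 in replicate 8 and 1.12, 1.12 and 1.1 in replicates 5 to 7. A lower factor raises the CPM of every gene in that library. Replicate 5 had the highest level of the heart muscle genes Myh6 (2520 CPM) and Tnnt2 (586.9 CPM), against 253.6 to 481.2 and 80.0 to 142.0 CPM in saline. Batch 2 bleomycin ran from 56.6 to 1834 CPM for Myh6 and from 27.9 to 323.8 CPM for Tnnt2. The heart muscle genes Nppa and Myl7 were highest in a batch 2 library (254.3 and 105.3 CPM). Whether these levels bear on the ADAMTS values was not tested.

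Between bleomycin batches, Adamts1 was the only member called. It was lower in batch 2 than in batch 1, at 159 ± 25.9 against 245 ± 40.5 CPM (log2 difference -0.62, SE 0.14, adjusted p = 0.0402), where 1.13% of tested genes were lower and 1.68% were called in either direction. This call did not hold with other size factors (adjusted p = 0.0543), by limma-voom (adjusted p = 0.079), or with bleomycin libraries alone (adjusted p = 0.1). It was also lost without any 1 of bleomycin replicates 2, 3, 4, 5, 6 and 8 or saline replicates 3, 4 and 5. Without 1 library at a time the difference stayed between -0.72 and -0.51, with adjusted p from 0.0173 to 0.131, the highest without bleomycin replicate 3. Adamts9 (-0.82, SE 0.23, adjusted p = 0.106) and Adamts4 (-1.40, SE 0.61, adjusted p = 0.316) were further from 0 but did not pass. Adamts2 was the closest to 0 (-0.03, SE 0.19, adjusted p = 0.969). The median difference over the 10 members was -0.22, against -0.03 over all tested genes, and 7 members had a negative one. Batch 2 libraries were also the shallower ones, and the batch holds no saline library. Whether depth bears on these differences was not tested.

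**Figure D4:**
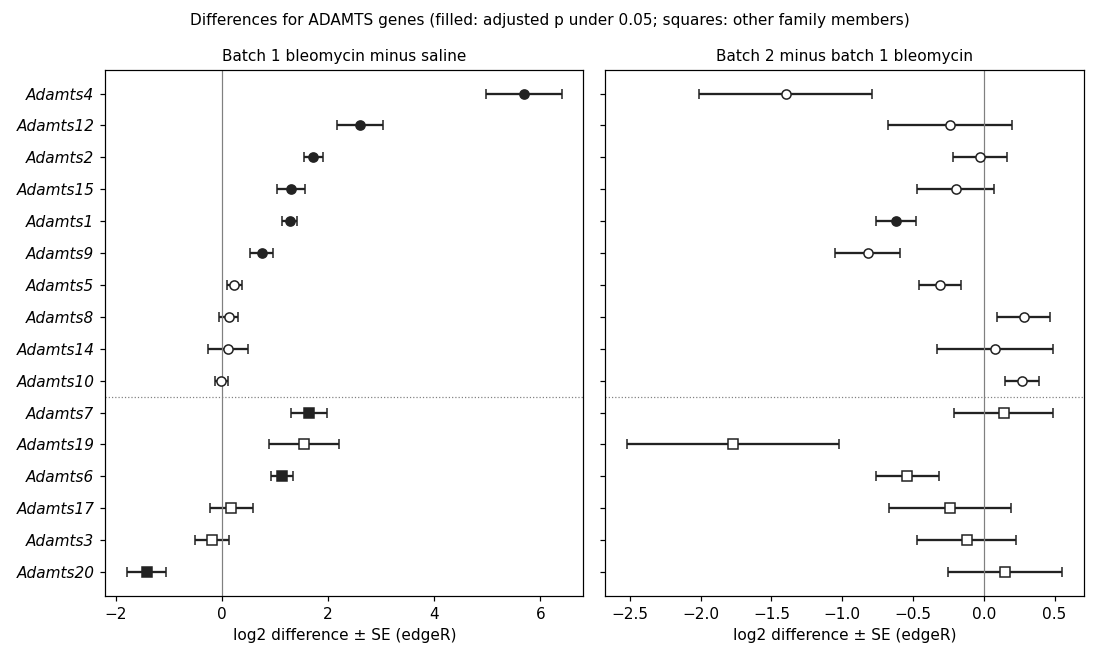
Log2 differences ± SE from edgeR for the 10 ADAMTS genes (circles) and 6 other tested family members (squares), for batch 1 bleomycin minus saline on the left and batch 2 minus batch 1 bleomycin on the right, filled where the adjusted p is under 0.05. On the left, 6 of the 10 circles are filled and lie above 0, led by Adamts4 at 5.69, and on the right only Adamts1 at -0.62 is filled.

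Of 9 other ADAMTS genes in the family, 6 were tested, 2 were higher, 1 was lower, and their median log2 change was 0.66. Beside this list and those below, the shares over all tested genes were 17.5% higher and 13.4% lower. Adamts7, which shares the cartilage oligomeric matrix protein substrate with Adamts12, had 3.11 ± 0.760 CPM in saline, 9.68 ± 6.25 in batch 1 bleomycin and 10.7 ± 3.06 in batch 2 (log2 change 1.64, SE 0.34, adjusted p = 0.00195). Adamts6, a relative of Adamts10, had 9.30 ± 1.40 CPM in saline and 20.5 ± 5.27 in batch 1 (1.13, SE 0.21, adjusted p = 0.000744), and in batch 2 it overlapped saline. Adamts20, a relative of Adamts9, was the only tested family member that fell, with 6.47 ± 2.00 CPM in saline and 2.40 ± 0.716 in batch 1 bleomycin (-1.42, SE 0.37, adjusted p = 0.00844). In batch 2 it had 2.62 ± 1.39 CPM and overlapped saline. Adamts3, the third procollagen N-propeptidase, had a log2 change of -0.19 (adjusted p = 0.692). Of the 3 N-propeptidases only Adamts2 thus passed. Among 7 ADAMTS-like genes, which lack the protease domain, 3 were higher and none was lower, with a median of -0.21. Adamtsl2, which binds fibrillin and latent TGF-beta binding proteins, rose by 1.30 (adjusted p = 0.000558), Adamtsl3 by 0.54 (adjusted p = 0.0109) and Adamtsl1 by 0.36 (adjusted p = 0.0302). There were 2 higher and 3 lower without bleomycin replicate 8.

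Genes for the substrates moved in part with the proteases. Of 12 proteoglycan and link protein genes, 9 were tested, 3 were higher, 1 was lower, and the median log2 change was -0.63. Vcan, which encodes versican, stood at 31.9 ± 5.78 CPM in saline, 77.7 ± 26.1 in batch 1 bleomycin and 61.9 ± 19.2 in batch 2 (log2 change 1.28, SE 0.24, adjusted p = 0.00175). The small leucine-rich proteoglycans Bgn (1.31, adjusted p = 0.000164) and Fmod (3.23, adjusted p = 0.000465) also rose, while Omd fell by 1.67 (adjusted p = 0.0383). The Omd call was lost without any 1 of 5 libraries (bleomycin replicates 6, 7 and 8, saline replicates 2 and 5). Acan, which encodes aggrecan, stayed low and scattered, at 9.10 ± 12.1 CPM in saline and 5.07 ± 4.33 in batch 1 bleomycin (log2 change -0.80, SE 1.31, adjusted p = 0.687).

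The procollagen genes and the enzymes for the carboxy end showed 8 higher and 1 lower of 10 tested of 11, with a median of 1.59. Col3a1 (2.68, adjusted p = 1.8e-05), Col1a1 (3.23, adjusted p = 0.000173) and Col1a2 (2.50, adjusted p = 0.000234) rose by more than Adamts2 did, and Bmp1, the main procollagen C-propeptidase, rose by 0.93 (adjusted p = 0.000396). Pcolce2, a C-propeptidase enhancer, fell by 2.05 (adjusted p = 0.00246). The 11 microfibril and cartilage matrix genes were all tested, with 7 higher, 1 lower and a median of 1.15. Ltbp2 (2.88, adjusted p = 2.17e-05) and Fbn1, a fibrillin gene (2.34, adjusted p = 5.5e-05), rose where the fibrillin-binding Adamts10 did not pass. Fbn2, another fibrillin gene, rose by 3.05 (adjusted p = 0.00162) and overlapped saline in batch 2. Ltbp3 rose by 0.62 (adjusted p = 0.000142) and Ltbp4 fell by 0.54 (adjusted p = 0.000922). In batch 2, Ltbp4 was at 335.4 CPM, overlapping saline (340.7 CPM), and its difference from batch 1 was called (0.52, adjusted p = 0.0195). The batch difference of Ltbp3 was called too (0.40, adjusted p = 0.0485), with means of 240.7 CPM in batch 2 and 181.8 CPM in batch 1 bleomycin. Comp, the gene for cartilage oligomeric matrix protein, went from 2.07 ± 2.86 to 4.29 ± 2.11 CPM and did not pass (1.15, SE 0.78, adjusted p = 0.29).

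The genes that restrain or clear these proteases moved in both directions. Of 9 inhibitor, clearance and cell surface genes, all tested, 5 were higher, 1 was lower, and the median was 0.45. Timp3, the main tissue inhibitor of ADAMTS aggrecanases, had 1737, 2035, 2168, 1916 and 1841 CPM in saline replicates 1 to 5. In bleomycin it had 992, 1514, 1330 and 1060 CPM in batch 1 and 1432, 1260, 1104 and 982 CPM in batch 2. No bleomycin library reached the saline range, and the log2 change was -0.66 (SE 0.14, adjusted p = 0.0017). Timp1, which mainly inhibits matrix metalloproteinases, rose by 4.32 (adjusted p = 0.000593), and Fn1, whose product binds and inhibits ADAMTS4, rose by 3.60 (adjusted p = 0.000205). Lrp1, the endocytic receptor that clears ADAMTS4 and ADAMTS5, rose by 0.93 (adjusted p = 0.00299), and A2m, a broad protease inhibitor, rose by 2.85 (adjusted p = 0.00422) from very low counts. A2m overlapped saline in batch 1, with 0.989 CPM in bleomycin replicate 5 and 1.62 CPM in saline replicate 2. Sdc4, a syndecan linked to ADAMTS5 activation, had a log2 change of 0.00 (adjusted p = 0.985), and Sdc1 rose by 0.45 (adjusted p = 0.00226).

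Of 6 genes for prodomain removal and for glycosylation of thrombospondin repeats, 4 were higher, none was lower, and the median was 0.36. Pcsk5 (1.05, adjusted p = 0.0045) and Furin (0.58, adjusted p = 0.00653), convertases that cut ADAMTS prodomains, rose, as did Pcsk7 (0.37, adjusted p = 0.0219) and the fucosyltransferase gene Pofut2 (0.35, adjusted p = 0.0363). Without bleomycin replicate 8, saline replicate 1 or saline replicate 2, 2 of them were higher. Furin overlapped saline in batch 1, with 111.0 CPM in bleomycin replicate 5 and 116.4 CPM in saline replicate 3. Over all 7 lists, 58 of 65 genes were tested, 32 were higher, 5 were lower, and the median log2 change was 0.43. Among all tested genes, 17.5% were higher and 13.4% lower.

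Without bleomycin replicate 8, 27 related genes were higher and 7 lower. Adamts7, for which this library was the highest of batch 1 (19.0 CPM, against 5.45 to 7.44), then had a log2 change of 1.05 (adjusted p = 0.00886). Vcan was at 1.05, Col1a1 at 2.92, Fn1 at 3.21 and Timp3 at -0.63, and each stayed called. Adamtsl1, Omd, Pcolce, Ltbp1, Pcsk7 and Pofut2 lost their calls, and Adamtsl4, Adamtsl5 and Thsd4 became lower.

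**Figure D5:**
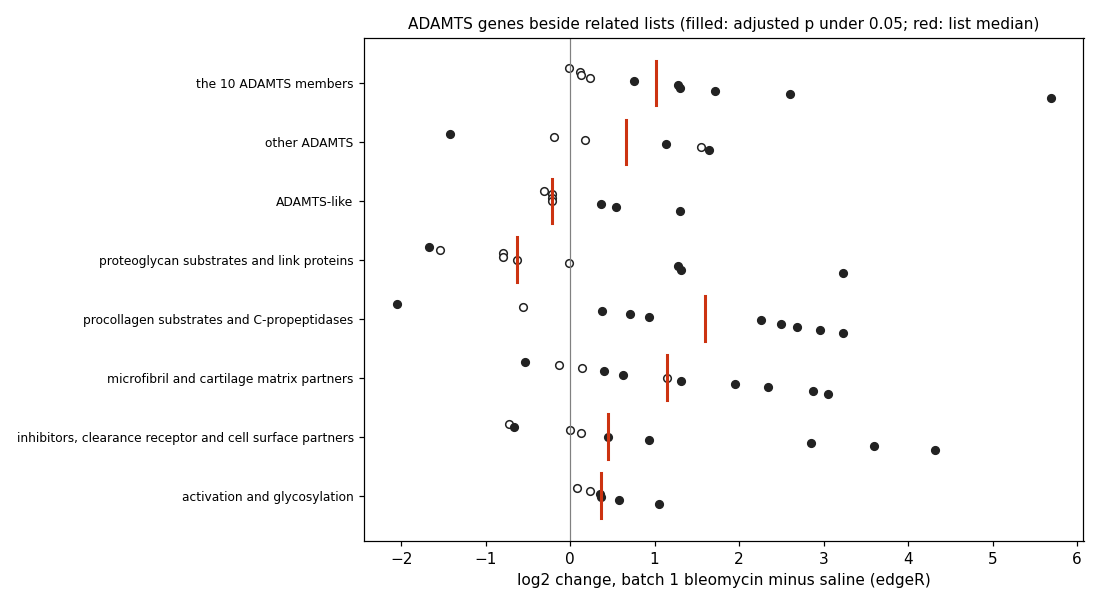
Log2 change (batch 1 bleomycin minus saline, edgeR) of each tested gene in the ADAMTS group and in 7 related lists, filled where the adjusted p is under 0.05, with a red line at each list's median. The ADAMTS median is 1.01, the procollagen list is highest at 1.59 and the proteoglycan list lowest at -0.63.

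Markers of cell types also moved between the groups, and their part in the ADAMTS changes was not tested. The counts called stand beside shares over all tested genes of 17.5% higher and 13.4% lower. Of 5 fibroblast markers, 3 were higher (Col1a1, Col1a2 and Lum) and none lower. Pdgfra (log2 change 0.18, adjusted p = 0.46) and Dcn (-0.01, adjusted p = 0.986) did not pass. In bleomycin the sum of the 5 was mostly Col1a1 and Col1a2, also in the procollagen list, with batch 1 means of 2593 and 1746 CPM. The summed level was 894 to 1108 CPM in saline, 2013 to 7124 in batch 1 bleomycin and 3102 to 7242 in batch 2. Of 5 macrophage and monocyte markers, 4 were higher (109 to 120, 214 to 377 and 264 to 392 CPM in the same order), as were 4 of 5 T and B cell markers (12.8 to 28.0, 40.6 to 56.2 and 30.7 to 63.3 CPM). All 5 alveolar epithelial markers were lower in batch 1 bleomycin (5924 to 7877, 2547 to 4712 and 3418 to 7795 CPM), as were 3 of 4 airway markers and 3 of 5 endothelial markers. In batch 2, Sftpc, Sftpb, Sftpa1 and Ager overlapped saline, and Hopx lay wholly below it. Ager was higher in batch 2 than in batch 1 bleomycin (log2 difference 0.72, adjusted p = 0.0291). Of 6 smooth muscle and pericyte markers, 1 was higher and 2 were lower. Chondrocyte markers, of which 4 of 5 were tested, had none called and ran from 1.13 to 46.4 CPM in saline, 4.03 to 18.3 in batch 1 and 3.82 to 39.1 in batch 2. Heart muscle markers (583 to 936, 571 to 3856 and 100 to 2730 CPM in saline, batch 1 and batch 2), skeletal muscle markers (15.7 to 1861, 69.9 to 291 and 3.16 to 523 CPM) and adipocyte markers (109 to 460, 72.8 to 328 and 60.8 to 269 CPM) had none called. Of 4 mesothelial markers 1 was higher and 1 lower (23.5 to 46.2, 26.1 to 76.0 and 42.2 to 71.6 CPM), and of 4 erythroid markers 1 was higher (17.7 to 31.9, 50.5 to 64.3 and 27.1 to 194 CPM). The markers Sftpa1, Kdr, Lum, Msln and Cd79a lost their calls and Acta2 became lower when bleomycin replicate 8 was left out. No marker of these types was at 0 in every library, and the alveolar markers show lung in every group.

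For the member with the largest rise, Adamts4, log2 CPM (prior count 2) was correlated with that of other genes over the 13 libraries. Among genes of at least 5 mean CPM, those most like it were Zc3h12d (Pearson r 0.985), Il7r (0.984) and Kdelr3 (0.976). Such a correlation does not compare the size of the changes, and the prior bears on the low saline values of Adamts4. The 13 points share the split by treatment and batch, so these values are a description. Each of the 3 genes was higher in bleomycin, which their choice by likeness to Adamts4 largely fixed in advance. Their log2 changes were 1.65 for Zc3h12d, 1.89 for Il7r and 1.52 for Kdelr3, against 5.69 for Adamts4.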

How the data were processed

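The authors deposited raw counts, 1 whole number for each gene symbol and library. The submitters' processing notes name cutadapt 4.4, STAR 2.7.10b, featureCounts 2.0.3, DESeq2 1.42.1 and build mm39. What each tool did, how strand was treated and which annotation was used is not stated in those sources. Counts from 1 to 10 were even in 78.4% to 86.1% of cases, as when both mates of a pair are counted. The deposited normalized table was not used.

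Genes were kept by filterByExpr over batch and treatment groups, normalized by TMM and fitted in edgeR 4.0.16 (R 4.3.3) with robust quasi-likelihood fits, with batch and treatment as terms over all 13 libraries. Because batch 2 has no saline library, the treatment term sets 4 bleomycin against 5 saline libraries of batch 1. CPM are from TMM-scaled totals. Exon lengths are union lengths from GENCODE M21, matched by symbol. Overlaps of members with genes on the opposite strand are reported here only in part. The SE is the log2 change divided by the square root of F. The 38 within-treatment pairs of libraries differed by more than sampling noise (chi-square over its degrees of freedom, 10.1 to 267). The permutation test counts splits with an absolute difference at least as large. The fits were tested on simulated data.

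The members, the gene lists and the tests were chosen with earlier results of these data known. All 10 members are named, with up to 3 called genes of lowest p per related list, partners set beside a member, and the 3 genes most like the member with the largest rise. Alternatives were RLE size factors, no filter, DESeq2 1.42.0, limma-voom 3.58.1, batch 1 alone, bleomycin alone, no batch term, a replicate block, replicate 8 as saline, other prior counts and leaving out each library.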

Additional observations from a re-analysis of the deposited data

Results flagged for a closer look

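Within groups of 4 or 5 libraries, 1 library stood apart from the others by Dixon's criterion in 5 of 30 groups checked, and chance gives about 1 in 20. In batch 2 bleomycin, replicate 1 was the high library for both Adamts2 (233 CPM, against 145 to 156 in the others) and Adamts9 (124 CPM, against 76.4 to 84.4). In batch 1 bleomycin, replicate 7 was low for Adamts5 (26.4 CPM, against 39.3 to 41.5). In saline, replicate 4 was at 0 CPM for Adamts4, against 0.682 to 0.766 in the others, and replicate 5 was high for Adamts14 (10.8 CPM, against 6.96 to 7.86).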

How the results depend on the processing

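The 6 rises were all kept with RLE size factors, DESeq2, limma-voom and batch 1 alone. Adamts9 was the only call lost with no filter, with no batch term and with the replicate block (0.12, adjusted p = 0.8). Without 1 library at a time, 5 to 6 members, 2863 to 3757 genes and 27 to 33 related genes were higher, and 2119 to 2897 genes and 4 to 7 related genes were lower. The members higher in each of these fits were among the same 6.

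With bleomycin replicate 8 counted as saline, 0 members were higher. In that fit 399 genes were higher and 246 lower, and 0 related genes were higher and 1 lower. The log2 change was then 1.87 for Adamts4 (adjusted p = 0.426), 1.06 for Adamts12, 0.94 for Adamts15, 0.88 for Adamts2, 0.77 for Adamts9, 0.76 for Adamts1 and -0.46 for Adamts14.

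Replicate numbers did not pair libraries: same-numbered bleomycin and saline libraries had correlations of -0.35 to 0.04. With the replicate block in place of the batch term, 5 of the 6 calls were kept and 4747 genes were called, against 6319. Adamts10 was then at 0.25 and Adamts14 at -0.19.

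Values that did not pass also changed sign, and the cause was not tested. Adamts10 was at 0.02 with no filter, 0.13 with no batch term, and 0.08 and 0.05 without bleomycin replicates 6 and 7. Adamts14 was at -0.05 by limma-voom. Without 1 library at a time, Adamts8 ran from -0.03 to 0.26, Adamts10 from -0.12 to 0.08 and Adamts14 from -0.30 to 0.41. For batch 2 minus batch 1, leaving out 1 library at a time gave -0.22 to 0.15 for Adamts2, -0.75 to 0.04 for Adamts12, -0.20 to 0.47 for Adamts14 and -0.41 to 0.10 for Adamts15.

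The number of members lower in batch 2 was 0 with RLE size factors, by limma-voom and with bleomycin libraries alone, 2 by DESeq2, and 0 to 2 without 1 library at a time. Adamts9 was the second member by DESeq2 (-0.80, adjusted p = 0.0176) and without bleomycin replicate 1 (-1.01, adjusted p = 0.0414). Over all genes, 112 were higher and 231 lower. DESeq2 gave 301 and 436, no filter gave 388 lower, limma-voom 27 lower, bleomycin libraries alone 81 lower, and leaving out 1 library gave 53 to 411 higher and 95 to 682 lower, with the highest of each without bleomycin replicate 8.

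For the within-library ratios, leaving out 1 library gave 4.68 to 5.85 for Adamts4 to Adamts5, 1.5 to 1.91 for Adamts2 to Adamts14, 0.99 to 1.29 for Adamts1 to Adamts8 and 0.71 to 1.30 for Adamts12 to Adamts7, whose difference passed without saline replicate 4 (1.29, adjusted p = 0.0286 by the exact permutation test). Depth limits Adamts4 in saline, which rests on 0 to 21 counts per library.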

Other observations

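The 3 family members under the filter on low counts were Adamts13, Adamts16 and Adamts18. Adamts16 had 2 counts in total over the 5 saline libraries, with 4 of them at 0, and 2 to 35 counts in each of the 8 bleomycin libraries (91 in total). Adamts13, the protease of von Willebrand factor, had 15 counts in saline and 73 in bleomycin. Adamts18 had 24 in saline and 17 in bleomycin. These counts are not scaled for depth, and the genes were not tested.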
